A study of Mus musculus with 7 samples.

Results

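Collagens are the triple-helical proteins of the extracellular matrix, and each chain has its own gene. The chains were taken as all genes whose single symbol in the platform annotation reads Col, digits, a, digits. This gave 42 of 18193 genes, measured by 82 of 34945 probe sets with a single gene, and each chain is described here by the brightest of its probe sets (highest mean log2 value). Of these chains 11 are fibrillar, 8 belong to basement membranes, 9 are fibril-associated, and 14 are network-forming, microfibrillar, transmembrane or otherwise grouped here as other. Expression was measured on 7 Affymetrix Mouse 430 2.0 arrays of plantaris muscle from mice aged 4 months. Every mouse carried Pax7-CreER and Rosa26-DTA (the Pax7-DTA genotype), in which tamoxifen turns on a diphtheria toxin chain in cells with an active Pax7 gene. Pax7 encodes a transcription factor that marks satellite cells, the stem cells of muscle. Overload means that muscles sharing the work of the plantaris were removed (synergist ablation), so that the plantaris grows under load.

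The groups were tamoxifen with 1 week of overload (3 arrays, of 2 male and 1 female mice), vehicle with 1 week of overload (2 arrays, of 1 female and 1 male), tamoxifen with sham surgery (1 array, male) and vehicle with sham surgery (1 array, male). Tamoxifen overload replicates 1 and 2 and vehicle overload replicate 2 are male. Titles name single mice, but the series' own design note counts 11 animals and mentions pooling, so the number of animals behind an array is uncertain, and p-values measure the spread between these arrays. All mice carried the toxin allele, so loss of Pax7 cells and tamoxifen itself cannot be told apart. Pax7 had signals of 57.9, 9.97 and 120 with tamoxifen overload and 274 and 349 with vehicle overload, against 41.2 with tamoxifen sham and 92.8 with vehicle sham (tamoxifen minus vehicle in overload -2.67 ± 0.81 on the log2 scale, adjusted p = 0.399).

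Collagen chains are folded into triple helices in the endoplasmic reticulum after their prolines and lysines are hydroxylated. Fibrillar chains then lose their propeptides outside the cell, line up into fibrils and are crosslinked by lysyl oxidases. In skeletal muscle, types I and III form most of the endomysium and perimysium, type IV forms the sheet around each fibre and capillary, and type VI links that sheet to the fibrils. Fibroblasts make most of the fibrillar collagen of muscle.

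The 250 bases before the annotated start are shown for 4 chains with large signals or large changes in the results, each 5′ to 3′ on the gene's strand, from RefSeq on GRCm38.p6. Capitals mark the CCAAT box, which NF-Y binds. They also mark TATAAA, a form of the TATA box. Last, they mark GGGCGG, the GC box of Sp1 proteins, which a site on the opposite strand spells as CCGCCC. Each was searched on both strands.
Col1a2 (chr6:4505368-4505617, plus strand): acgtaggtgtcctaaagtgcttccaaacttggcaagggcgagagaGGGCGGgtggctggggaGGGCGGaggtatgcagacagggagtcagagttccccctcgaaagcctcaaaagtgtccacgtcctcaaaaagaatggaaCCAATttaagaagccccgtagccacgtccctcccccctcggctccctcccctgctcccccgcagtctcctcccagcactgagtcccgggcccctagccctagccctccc
Col3a1 (chr1:45311288-45311537, plus strand): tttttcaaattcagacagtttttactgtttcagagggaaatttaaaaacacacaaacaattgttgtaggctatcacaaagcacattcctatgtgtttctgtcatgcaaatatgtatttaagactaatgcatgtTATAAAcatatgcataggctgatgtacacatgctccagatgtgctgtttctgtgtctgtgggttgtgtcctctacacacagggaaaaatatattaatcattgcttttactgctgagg
Col5a1 (chr2:27886175-27886424, plus strand): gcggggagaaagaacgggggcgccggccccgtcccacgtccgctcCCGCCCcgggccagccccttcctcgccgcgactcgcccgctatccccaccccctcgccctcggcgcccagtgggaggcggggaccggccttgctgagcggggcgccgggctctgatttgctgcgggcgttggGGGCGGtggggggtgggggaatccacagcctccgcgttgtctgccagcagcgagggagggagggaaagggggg
Col8a1 (chr16:57754738-57754987, minus strand): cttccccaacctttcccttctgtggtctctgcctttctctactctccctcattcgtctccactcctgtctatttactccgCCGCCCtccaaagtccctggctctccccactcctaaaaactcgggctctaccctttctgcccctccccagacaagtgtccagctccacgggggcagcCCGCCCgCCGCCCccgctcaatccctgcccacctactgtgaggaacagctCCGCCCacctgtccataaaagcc

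These windows held different letters: Col1a2 had 1 CCAAT and 2 GGGCGG, Col3a1 had 1 TATAAA, Col5a1 had 2 GC boxes and Col8a1 had 4. The promoter table held 33 of the 42 chains, 20 of them called higher in overload. GGGCGG was found in 13 of these 20 (65.0%), in 7 of the other 13 chains (53.8%) and in 35.4% of 27025 genes with an entry. CCAAT was found in 8 of the 20 (40.0%), in 5 of the other 13 (38.5%) and in 37.5% of all entries, and TATAAA in 2 of 20 (10.0%), 3 of 13 (23.1%) and 14.3%. Matches of different motifs can share bases and were each counted, and a match is a run of letters and not a bound site.

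Overload raised 26 of the 42 collagen chains (61.9%), averaged over both treatments, and no chain was called lower. Over all genes 14.7% were called higher and 8.16% lower. The call is an adjusted p under 0.05 in limma, in a model with group and sex terms, and each fold change below is on the scale of log2(signal + 1). The median difference was 1.49 over the chains and 0.07 over all genes, and 15 chains were called with a fitted difference of at least 4-fold, against 3.64% of all genes. Col2a1 is among the 15 by its fitted value, although its sham arrays allow only a lower bound. For 26 chains every overload array lay above both sham arrays (23.1% of all genes), and for 3 chains, Col4a6, Col9a1 and Col6a5, every overload array lay below both (18.3%). The counts rest on limma's sharing of variance between genes of like intensity. With that trend left out, or with an ordinary linear model, no chain and none of the 18193 genes passed the adjusted threshold. In these fits 29 and 24 chains had an unadjusted p under 0.05 (share over all genes not counted). In the fit that keeps the trend this number was 28 chains, against 34.6% of all genes.

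**Figure D1:**
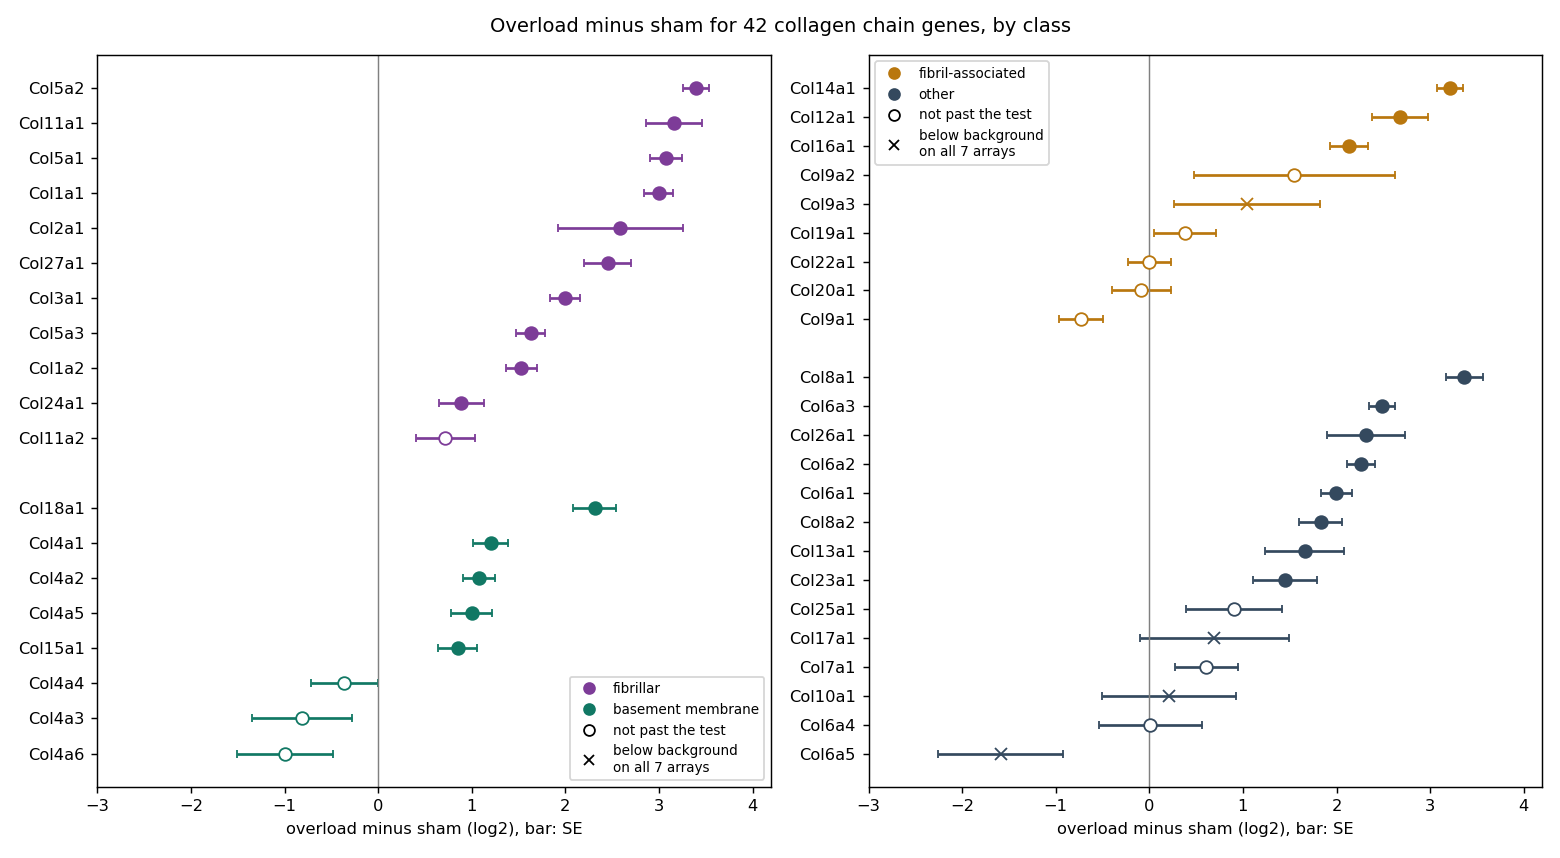
Overload minus sham (log2, x axis) for the 42 collagen chain genes, grouped by class and ordered by size. Points are limma estimates over 5 overload and 2 sham arrays and bars are SE; filled points passed the test, open points did not, and crosses mark chains below background on all 7 arrays. Filled points run to the right of 0 in all 4 classes, with Col5a2, Col8a1, Col14a1, Col11a1 and Col5a1 above 3.

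Of the 11 fibrillar chains 10 rose, with a median difference of 2.45. Col1a1, which with Col1a2 makes type I collagen, had signals of 25142, 22996 and 24286 with tamoxifen overload and 24496 and 18913 with vehicle overload, against 3182 with tamoxifen sham and 2322 with vehicle sham. It was 7.98-fold higher in overload (3.0 ± 0.16, SE, adjusted p = 5.36e-05). Col1a2 had 29127, 24897 and 28932 with tamoxifen overload and 29493 and 24820 with vehicle overload, against 10158 with tamoxifen sham and 8019 with vehicle sham (1.53 ± 0.16, adjusted p = 0.000767). No overload array of either gene came near a sham array, and the overload arrays lay close together. Col3a1, the single chain of type III collagen, read 35868, 32446 and 34389 with tamoxifen overload and 34242 and 34186 with vehicle overload, against 11402 with tamoxifen sham and 6385 with vehicle sham (2.00 ± 0.16, adjusted p = 0.000265).

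Type V collagen starts type I fibrils and limits their width, and its 3 chains rose to different degrees. Col5a2 had signals of 17042, 18336 and 18222 with tamoxifen overload and 15058 and 12910 with vehicle overload, against 1879 with tamoxifen sham and 1118 with vehicle sham. Its rise was 10.5-fold (3.39 ± 0.14, adjusted p = 1.62e-05). Col5a1 had 9106, 11942 and 9876 with tamoxifen overload and 6936 and 5518 with vehicle overload, against 1133 with tamoxifen sham and 742 with vehicle sham, an 8.43-fold difference (3.08 ± 0.17, adjusted p = 5.91e-05). For both chains all 3 tamoxifen overload arrays lay above both vehicle overload arrays (share over all genes not counted). For both, every overload array lay above the sham arrays. Col5a3 rose by 1.63 ± 0.16 (adjusted p = 0.000501), with 1653 to 2255 in overload and 473 to 814 in sham. With its probe sets averaged it was not called (0.36, adjusted p = 0.358), and its second set was below background in every group.

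Col11a1, a chain of type XI collagen that takes part in fibril assembly in cartilage and tendon, had 2349, 2993 and 2680 with tamoxifen overload and 2013 and 747 with vehicle overload, against 217 with tamoxifen sham and 130 with vehicle sham. It rose 8.94-fold (3.16 ± 0.30, adjusted p = 0.000459), and the male vehicle overload array stood lowest among the 5. Its partner Col11a2 did not pass the test (0.72 ± 0.31, adjusted p = 0.148), and its 183 on that same array lay between the sham arrays at 241 and 148.

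Col2a1, the chain of cartilage fibrils, read 126, 216 and 170 with tamoxifen overload and 120 and 16.3 with vehicle overload, against 21.6 with tamoxifen sham and 3.61 with vehicle sham. Background was set at a signal of 53.6, the 95th percentile of 77 olfactory, vomeronasal and taste receptor genes, and both sham arrays and the male vehicle overload array lay below it. A bound here sets the mean overload level against that background, and the p-value beside it is that of the fitted difference (2.59 for Col2a1). Col2a1 was at least 1.82-fold higher in overload (adjusted p = 0.0277), a call lost with a pseudocount of 16 (1.64, adjusted p = 0.0592), without tamoxifen overload replicate 2 (2.20, adjusted p = 0.0852) and, in an additive model, without either the vehicle sham array (2.48, adjusted p = 0.0836) or the tamoxifen sham array (2.70, adjusted p = 0.125). Of 8 cartilage markers 6 were above background in a group, 5 had a positive difference, and Matn1 was below background on every array. The only 1 called higher was Ucma, with 39.7 to 98.5 in overload and 32.9 and 8.64 in sham. The summed signal of the 8 markers was 401 to 1225 in overload and 307 to 401 in sham. Acan, the main cartilage proteoglycan, had 267, 529 and 218 with tamoxifen overload and 179 and 71.2 with vehicle overload, against 82.3 with tamoxifen sham and 48.3 with vehicle sham. It was not called (1.51 ± 0.51, adjusted p = 0.0693). The part of these markers in the Col2a1 values was not tested.

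Col27a1 and Col24a1 are minor fibrillar chains. Col27a1 had 697, 1077 and 797 with tamoxifen overload and 480 and 351 with vehicle overload, against 269 with tamoxifen sham and 38.9 with vehicle sham (2.45 ± 0.25, adjusted p = 0.000667). The vehicle sham array alone was below background, and with vehicle the rise was at least 7.53-fold. Col24a1 differed by 0.89 ± 0.24 (adjusted p = 0.0327), with 198 to 293 in overload and 110 to 152 in sham. Its call was lost without tamoxifen overload replicate 2 (0.85, adjusted p = 0.0689) or 3 (0.87, adjusted p = 0.0555), without vehicle overload replicate 1 (0.87, adjusted p = 0.0549) or 2 (1.03, adjusted p = 0.103), and, in the additive model, without the vehicle sham (0.85, adjusted p = 0.101) or tamoxifen sham array (0.93, adjusted p = 0.138). It was also lost with male arrays alone (0.87, adjusted p = 0.0567), after quantile normalization (0.61, adjusted p = 0.125) and after median centring (0.60, adjusted p = 0.107).

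**Figure D2:**
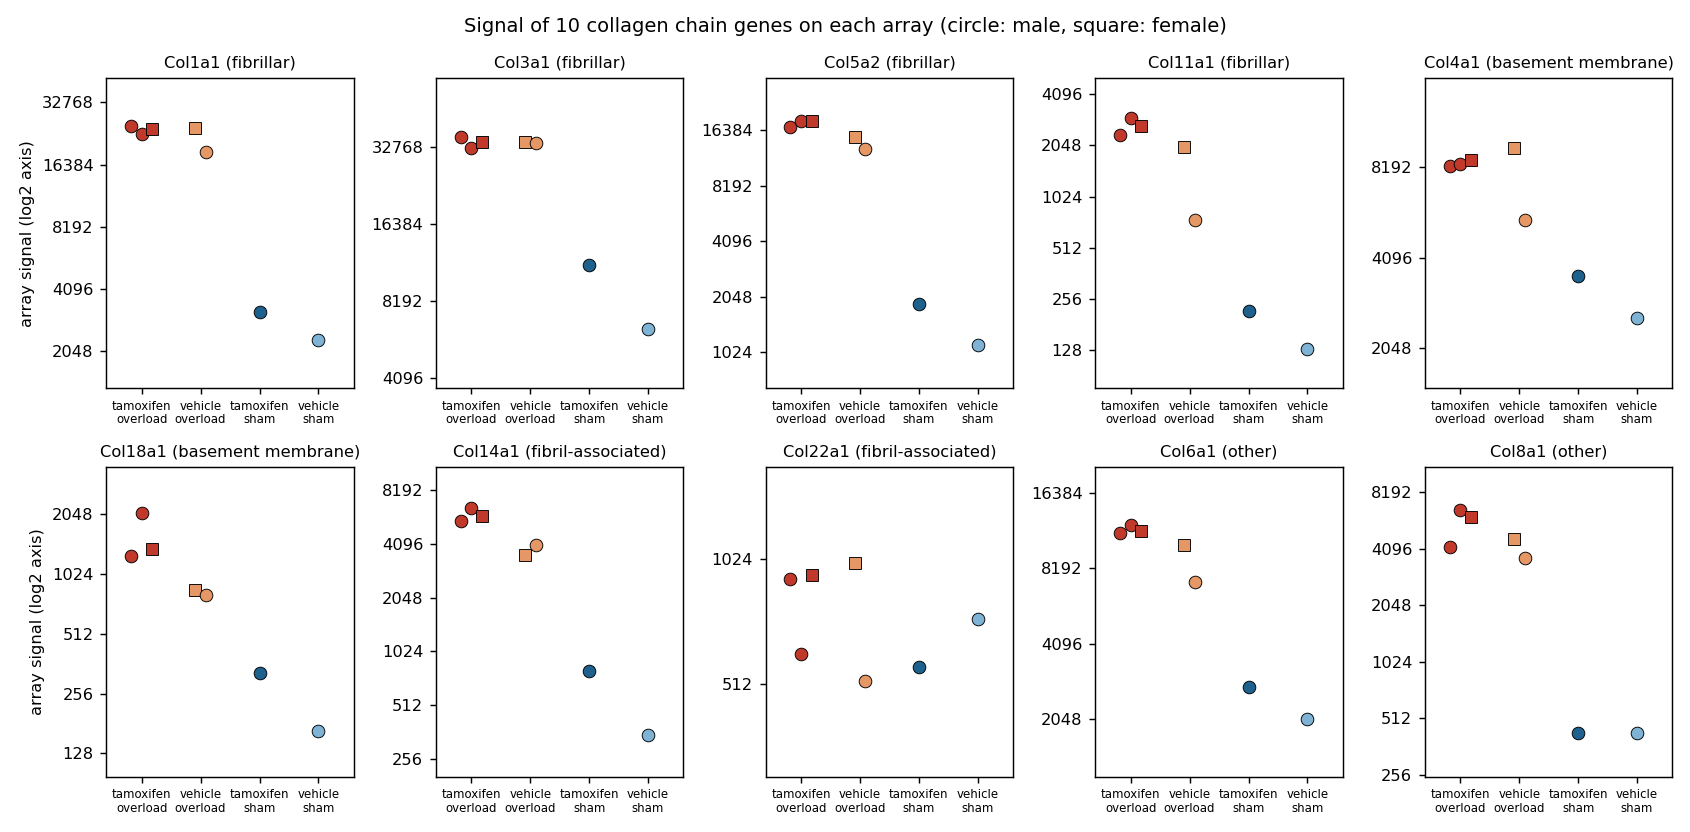
Array signal (y axis, log2 scale) of 10 collagen chain genes in the 4 groups; each point is 1 array, circles are males and squares females. Every overload array lies above both sham arrays except for Col22a1, whose signals of 521 to 1002 in overload overlap 561 and 734 in sham.

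Among the 8 basement membrane chains 5 rose and 3 did not pass the test, with a median difference of 0.92. Col18a1, whose protein releases endostatin, had the largest rise, with 1266, 2078 and 1374 with tamoxifen overload and 849 and 805 with vehicle overload, against 326 with tamoxifen sham and 166 with vehicle sham (4.97-fold, 2.31 ± 0.23, adjusted p = 0.000559). The main type IV chains, Col4a1 and Col4a2, start head to head on opposite strands of chromosome 8 in RefSeq. Col4a1 read 8260, 8354 and 8668 with tamoxifen overload and 9484 and 5447 with vehicle overload, against 3573 with tamoxifen sham and 2573 with vehicle sham (2.30-fold, 1.20 ± 0.18, adjusted p = 0.00324). Col4a2 read 4610, 4889 and 5080 with tamoxifen overload and 5453 and 3287 with vehicle overload, against 2216 with tamoxifen sham and 1679 with vehicle sham (2.11-fold, 1.08 ± 0.17, adjusted p = 0.00365). In both, the female vehicle array was the highest of the 5 overload arrays and the male vehicle array the lowest.

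Col4a5, a chain of a second type IV network, had 416, 364 and 362 with tamoxifen overload and 385 and 290 with vehicle overload, against 209 with tamoxifen sham and 142 with vehicle sham (1.00 ± 0.22, adjusted p = 0.0157). Col15a1, which sits at the outer face of basement membranes in muscle, ran from 676 to 1488 in overload and from 360 to 640 in sham (0.85 ± 0.21, adjusted p = 0.0244). Their groups did not overlap, but the calls were lost under other scalings. They were also lost when some single arrays were left out, which leaves fewer arrays for the test. Col15a1 was not called without tamoxifen overload replicate 2 (0.76, adjusted p = 0.0655), nor in the additive model without the vehicle sham (0.54, adjusted p = 0.238) or tamoxifen sham array (1.16, adjusted p = 0.0535). Col4a5 was not called in the additive model without the vehicle sham (0.82, adjusted p = 0.0902) or tamoxifen sham array (1.17, adjusted p = 0.0576). After quantile normalization neither Col15a1 (0.73, adjusted p = 0.06) nor Col4a5 (0.74, adjusted p = 0.0694) was called, nor after median centring (0.56, adjusted p = 0.0927, for Col15a1 and 0.71, adjusted p = 0.0579, for Col4a5). With probe sets averaged Col4a5 was not called either (0.69, adjusted p = 0.0751).

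Col4a6, which pairs with Col4a5 in some tissues and neighbours it on chromosome X, had 29.6, 95 and 93.7 with tamoxifen overload and 133 and 96.2 with vehicle overload, against 138 with tamoxifen sham and 144 with vehicle sham. All 5 overload arrays were the lower, but the difference did not pass the test (-0.99 ± 0.51, adjusted p = 0.214). Col4a4 (-0.36 ± 0.36, adjusted p = 0.544) and Col4a3 (-0.81 ± 0.53, adjusted p = 0.331), the chains of the kidney's filtration membrane, lay near background. A second and dimmer Col4a3 probe set was called lower in overload (-2.82 ± 0.69, adjusted p = 0.0253), with 42.4, 54.1, 60.4, 44.1 and 3.65 on the overload arrays, against 124 and 120 on the sham arrays.

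Of the 9 fibril-associated chains 3 rose, and these 3 rose steeply. Col14a1, which coats type I fibrils, had 5495, 6482 and 5855 with tamoxifen overload and 3533 and 4031 with vehicle overload, against 793 with tamoxifen sham and 347 with vehicle sham. The difference was 9.26-fold (3.21 ± 0.14, adjusted p = 1.88e-05). Col12a1, a relative found in tissues under tension, had 5212, 9162 and 6011 with tamoxifen overload and 4297 and 2251 with vehicle overload, against 748 with tamoxifen sham and 568 with vehicle sham (6.39-fold, 2.68 ± 0.30, adjusted p = 0.000969). Col16a1 had 1583, 2247 and 1964 with tamoxifen overload and 1348 and 899 with vehicle overload, against 336 with tamoxifen sham and 277 with vehicle sham (4.38-fold, 2.13 ± 0.20, adjusted p = 0.000494). For all 3 chains the tamoxifen overload arrays lay highest, the vehicle overload arrays next and the sham arrays lowest, with no overlap between these sets. The share of all genes ordered in this way was not counted.

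The other fibril-associated chains did not pass the test. Col22a1, known for its place at the junction of muscle and tendon, had 917, 603 and 939 with tamoxifen overload and 1002 and 521 with vehicle overload, against 561 with tamoxifen sham and 734 with vehicle sham. Its difference was 0.00 with a 95% confidence interval from -0.53 to 0.53, so the interval leaves out a 2-fold change. Col9a1, a chain of cartilage, had 306, 307 and 96.3 with tamoxifen overload and 82.3 and 195 with vehicle overload, against 370 with tamoxifen sham and 463 with vehicle sham. Every overload array was below both sham arrays, and the sex-adjusted difference of -0.73 ± 0.24 did not pass the test (adjusted p = 0.0622). It was called lower with male arrays alone (-0.76, adjusted p = 0.0441), after quantile normalization (-0.90, adjusted p = 0.0411), after median centring (-1.02, adjusted p = 0.0167) and when genes below background were dropped before the test (-0.73, adjusted p = 0.0335). A second Col9a1 probe set went the other way (0.29 ± 0.31, adjusted p = 0.583).

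Col19a1 (0.38 ± 0.33, adjusted p = 0.479) and Col20a1 (-0.08 ± 0.32, adjusted p = 0.888) were above background in every group without passing the test. Col19a1 read 137, 167 and 172 with tamoxifen overload and 155 and 316 with vehicle overload, against 174 with tamoxifen sham and 144 with vehicle sham, so its positive sign rests on the male vehicle overload array, without which it was -0.13. In the additive model without the vehicle sham array it was -0.031. Col9a3 was below background on all arrays and Col9a2 above it on 1.

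The remaining 14 chains gave 8 rises, a median difference of 1.56 and 6 members that did not pass. Col8a1, a network-forming chain of vessel walls and other matrices, had 4212, 6563 and 6084 with tamoxifen overload and 4644 and 3650 with vehicle overload, against 429 with tamoxifen sham and 426 with vehicle sham. It was 10.3-fold higher in overload (3.36 ± 0.20, adjusted p = 7.11e-05), with a sham level that was nearly equal on the 2 sham arrays. Its partner Col8a2 had 1061, 1386 and 1153 with tamoxifen overload and 774 and 452 with vehicle overload, against 230 with tamoxifen sham and 204 with vehicle sham (3.55-fold, 1.83 ± 0.23, adjusted p = 0.0015).

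Type VI collagen forms the beaded microfibrils next to the muscle basement membrane, and mutations of its 3 main chains cause human muscle disease. Col6a1 had 11362, 12239 and 11598 with tamoxifen overload and 10173 and 7210 with vehicle overload, against 2739 with tamoxifen sham and 2044 with vehicle sham (4.00-fold, 2.00 ± 0.16, adjusted p = 0.000278). Col6a2 had 15266, 15501 and 13786 with tamoxifen overload and 12593 and 10760 with vehicle overload, against 3383 with tamoxifen sham and 2211 with vehicle sham (4.79-fold, 2.26 ± 0.15, adjusted p = 0.000124). Both genes, with Col18a1, lie on chromosome 10. Col6a3 had 14194, 13869 and 14845 with tamoxifen overload and 12790 and 11778 with vehicle overload, against 2968 with tamoxifen sham and 1781 with vehicle sham (5.60-fold, 2.49 ± 0.13, adjusted p = 5.49e-05). The 3 chains thus rose 4.00-fold to 5.60-fold with no overlap of overload and sham arrays. Col6a4 did not pass the test (0.01 ± 0.55, adjusted p = 0.992) and Col6a5 was below background on all arrays.

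The calls of Col13a1, Col23a1 and Col26a1 were lost when some single arrays were left out, which also leaves fewer arrays for the test. For Col23a1 the difference kept its size in those fits (1.43 to 1.49, against 1.45 with all arrays). Col13a1, a transmembrane chain of the neuromuscular junction, read 179, 103 and 134 with tamoxifen overload and 130 and 73.4 with vehicle overload, against 64.5 with tamoxifen sham and 15.9 with vehicle sham (1.66 ± 0.42, adjusted p = 0.026). It was not called after quantile normalization (1.40, adjusted p = 0.0649), without vehicle overload replicate 2 (2.02, adjusted p = 0.0537) or, in the additive model, without the vehicle sham array (0.94, adjusted p = 0.267). Col23a1, another transmembrane chain, read 181, 332 and 272 with tamoxifen overload and 147 and 124 with vehicle overload, against 87.1 with tamoxifen sham and 46.1 with vehicle sham (1.45 ± 0.34, adjusted p = 0.0191). Its call was lost without vehicle overload replicate 2 (1.49, adjusted p = 0.0846), and in the additive model without the vehicle sham (1.47, adjusted p = 0.0549) or tamoxifen sham array (1.43, adjusted p = 0.109).

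Col26a1 read 74.0, 61.4 and 68.3 with tamoxifen overload and 119 and 139 with vehicle overload, against 58.0 with tamoxifen sham and 5.41 with vehicle sham. The average difference of 2.31 ± 0.42 (adjusted p = 0.00652) rested on the vehicle sham array: in the additive model without it the value was 0.25 (adjusted p = 0.781). Without vehicle overload replicate 2 it was 2.21 (adjusted p = 0.0623). The call was also lost in the additive model with all arrays (2.11, adjusted p = 0.114) and with probe sets averaged (1.11, adjusted p = 0.179). With vehicle Col26a1 was at least 2.37-fold higher in overload (adjusted p = 0.00549), while with tamoxifen the difference was 0.25 ± 0.54 (adjusted p = 0.812). Col7a1, the chain of anchoring fibrils, read 807, 348 and 372 with tamoxifen overload and 390 and 780 with vehicle overload, against 425 with tamoxifen sham and 397 with vehicle sham (0.61 ± 0.34, adjusted p = 0.249). Col10a1 and Col17a1 were below background on all arrays.

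Chains with several probe sets gave a check on these sizes, each probe set being compared only with itself across arrays. Among 21 chains with 2 or more probe sets above background, all of them were called for 14 chains, none for 5 and some for 2 (Col4a3 and Col4a5). The sets of a chain had opposite signs for 3 chains, Col9a1, Col20a1 and Col22a1, none of which was called. Their differences spread by over 1 log2 unit for 8 chains and by at most 0.5 for 8. Sets below background in every group were left out. Of called chains these were Col5a3 (-0.91 ± 0.60) and Col26a1 (-0.09 ± 0.70), opposite in sign to their brightest sets. The dimmest Col12a1 sets (2.94 ± 1.00 and 1.35 ± 1.24) were left out too, with the same sign as the brightest. The dimmest Col14a1 set entered through overload arrays alone (4.61 and 17.5 in sham), so these counts partly follow from the filter. Altogether 45 of the 82 probe sets were called higher and 1 lower (share over all probe sets not counted). In that fit 14.4% of all genes were called higher by their brightest set.

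For several main chains the size depended on the probe set. The brightest Col3a1 probe set was 4.00-fold higher in overload, and its second set, with 16649, 17665 and 14885 with tamoxifen overload and 12997 and 11180 with vehicle overload, against 1566 with tamoxifen sham and 596 with vehicle sham, was 14.6-fold higher (3.87 ± 0.16). The brightest set ranked 3 to 13 among 45101 probe sets on the overload arrays, and 614 and 1240 on the sham arrays. Whether signals near the top of the scanner's range are compressed was not tested. For Col1a2 the brightest set, ranked 29 to 81 on the overload arrays, differed by 1.53 and the other 2 by 2.64 each, and for Col5a2 the sets differed by 3.39 and 4.39. Col1a1 went the other way, with 3.0 for the brightest set and 0.97 ± 0.15 for the dimmer. For these 4 chains each set was called higher, so the direction did not depend on the set and the fold did.

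**Figure D3:**
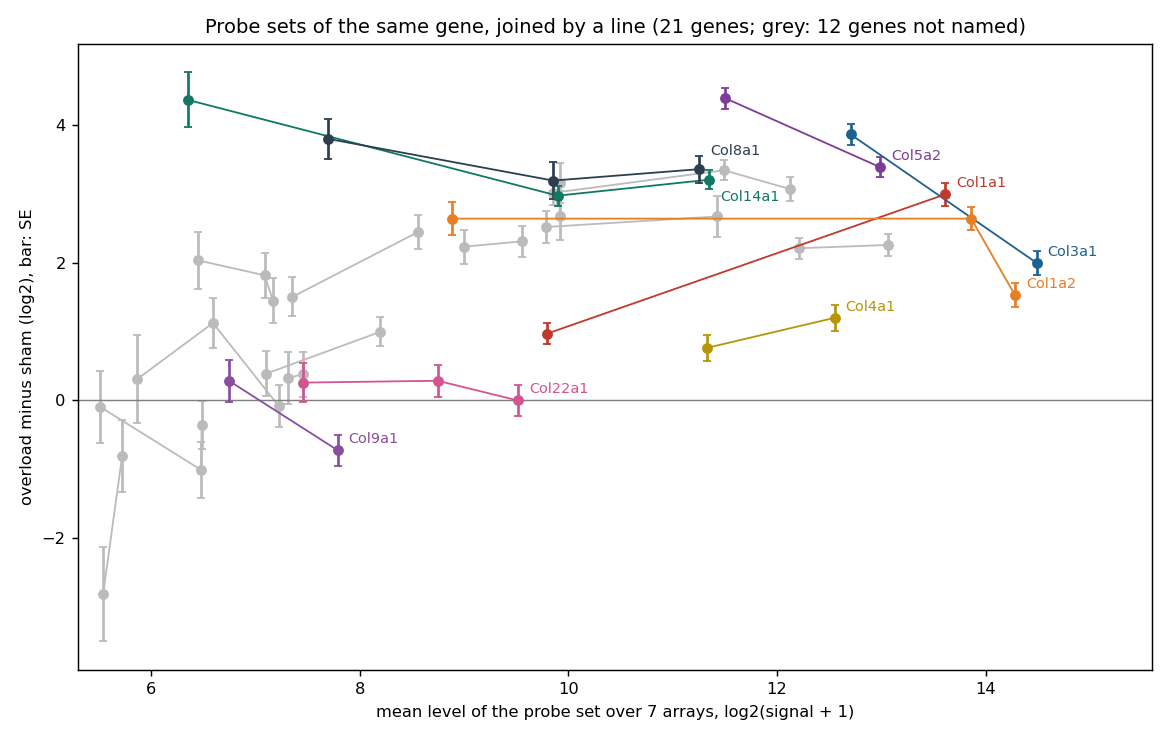
Overload minus sham (log2, y axis, bars are SE) against the mean level of each probe set over 7 arrays (x axis, log2(signal + 1)); lines join the probe sets of the same gene, for 21 collagen chains. The brighter sets of Col3a1 and Col1a2 lie lower than their dimmer sets, and Col1a1 shows the opposite slope.

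The same comparison within each treatment asked whether the rise was seen with and without Pax7-cell depletion. With tamoxifen (3 overload arrays against 1 sham array) 19 of 42 chains rose, against 9.98% of all genes called higher, with a median of 1.06. With vehicle (2 arrays against 1) 21 of 42 rose, against 6.35% of all genes, with a median of 1.64. No chain was called lower in either (4.9% of all genes with tamoxifen and 2.44% with vehicle), and all 19 chains called with tamoxifen were among the 21 called with vehicle, 90.5% of that list. The other 2 of the 21 were Col13a1 and Col26a1. Col1a1 differed by 2.87 ± 0.20 with tamoxifen (adjusted p = 0.000499) and by 3.13 ± 0.22 with vehicle (adjusted p = 0.000458). Col14a1 differed by 2.93 ± 0.18 with tamoxifen (adjusted p = 0.000242) and by 3.49 ± 0.20 with vehicle (adjusted p = 0.000196), and Col8a1 by 3.59 ± 0.25 with tamoxifen (adjusted p = 0.000486) and 3.14 ± 0.28 with vehicle (adjusted p = 0.00111).

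Some of these calls were lost when a single array was left out, which also leaves fewer arrays for the test. With vehicle, leaving out vehicle overload replicate 2 left 1 overload array against 1 sham array. The calls of Col1a2, Col3a1, Col4a2, Col13a1 and Col26a1 were then lost. Their differences were 1.78 (1.67 with all arrays), 2.41 (2.42), 1.60 (1.15), 2.98 (2.38) and 4.21 (4.38), in that order. Leaving out either female array left the male arrays to set the values, and Col4a1 (1.08, adjusted p = 0.058 without tamoxifen overload replicate 3), Col4a2 (0.97, adjusted p = 0.0667), Col8a2 (1.14, adjusted p = 0.0726) and Col13a1 (2.14, adjusted p = 0.109) were not called. Col13a1 was also not called without tamoxifen overload replicate 2 (2.45, adjusted p = 0.0624). With tamoxifen, leaving out replicate 2 of overload ended the calls of Col4a1 (1.03, adjusted p = 0.053) and Col4a2 (0.91, adjusted p = 0.0523). Median centring ended the calls of Col1a2 (1.11, adjusted p = 0.0603 with tamoxifen and 1.37, adjusted p = 0.0584 with vehicle), Col4a1 (0.83, adjusted p = 0.0804 with tamoxifen and 0.99, adjusted p = 0.0848 with vehicle) and Col4a2 (0.73, adjusted p = 0.0828 with tamoxifen and 0.85, adjusted p = 0.094 with vehicle).

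Tamoxifen and vehicle were compared directly in overloaded muscle, 3 arrays against 2. No chain and no gene (0.0%) passed the adjusted threshold in limma, while 18 of 42 chains had an unadjusted p under 0.05 (16 higher and 2 lower with tamoxifen), against 10.6% of all genes. Tamoxifen was the higher in 32 of 42 chains, against 52.8% of all genes, and the median difference was 0.28 over the chains and 0.03 over all genes. The smallest unadjusted p belonged to Col8a2, whose tamoxifen arrays at 1061 to 1386 lay above the vehicle arrays at 774 and 452 (1.06 ± 0.23, limma adjusted p = 0.378). Next came Col14a1 (0.64 ± 0.14), Col5a1 (0.74 ± 0.17), Col27a1 (1.06 ± 0.25) and Col16a1 (0.84 ± 0.20). Each also had a limma adjusted p of 0.378 and was higher on 3 of 3 tamoxifen arrays than on both vehicle arrays. Col8a2 and these chains were picked by their p-values, which favours such separation. The share of all genes separated in this way was not counted.

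Not all chains shared that direction. The brightest Col3a1 probe set differed by 0.00 with a 95% confidence interval from -0.37 to 0.37. All 3 tamoxifen overload arrays of its second set lay above both vehicle overload arrays (share over all probe sets not counted). Col1a1 differed by 0.19 ± 0.16 (adjusted p = 0.668). Col25a1, a transmembrane chain that mouse muscle needs for its motor nerve supply, read 25.3, 23.5 and 23.9 with tamoxifen overload and 80.5 and 64.5 with vehicle overload, against 22.3 with tamoxifen sham and 20.1 with vehicle sham. Its vehicle overload arrays were the only ones above background, and tamoxifen minus vehicle was -1.52 ± 0.51 (limma adjusted p = 0.418). A second Col25a1 set, below background in every group, read 49.1, 43.0 and 41.8 with tamoxifen overload and 36.1 and 17.9 with vehicle overload. Col6a4 was also the lower with tamoxifen (-1.72 ± 0.55, limma adjusted p = 0.411), with 23.4, 38.7 and 8.92 with tamoxifen overload and 48.4 and 74.1 with vehicle overload. Of these 5 arrays only the male vehicle array was above background. The second Col6a4 set, with every group mean below background, read 6.41, 103 and 42.5 with tamoxifen overload and 11.0 and 23.8 with vehicle overload.

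Much of that pattern rested on the male vehicle overload array. It was the lowest of the 5 overload arrays for 23 of the 26 risen chains (88.5%), against 43.9% of the genes called higher and 24.6% of all genes. Without it the median tamoxifen minus vehicle difference was 0.03. In that fit the only vehicle overload array is female, so with the sex term the difference is that of 1 female array of each treatment. Between males the difference was 1.83 for Col11a1, 1.42 for Col8a2 and 0.92 for Col5a1, and between females 0.41, 0.57 and 0.51. Col14a1 was 0.57 between males and 0.73 between females. Leaving out tamoxifen overload replicate 1 moved the count to 8 called chains, all higher with tamoxifen: Col5a1, Col8a2, Col11a1, Col12a1, Col14a1, Col16a1, Col18a1 and Col27a1. In that fit 184 of all genes (1.01%) were called higher and 43 lower. Which of these arrays is atypical was not tested.

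**Figure D4:**
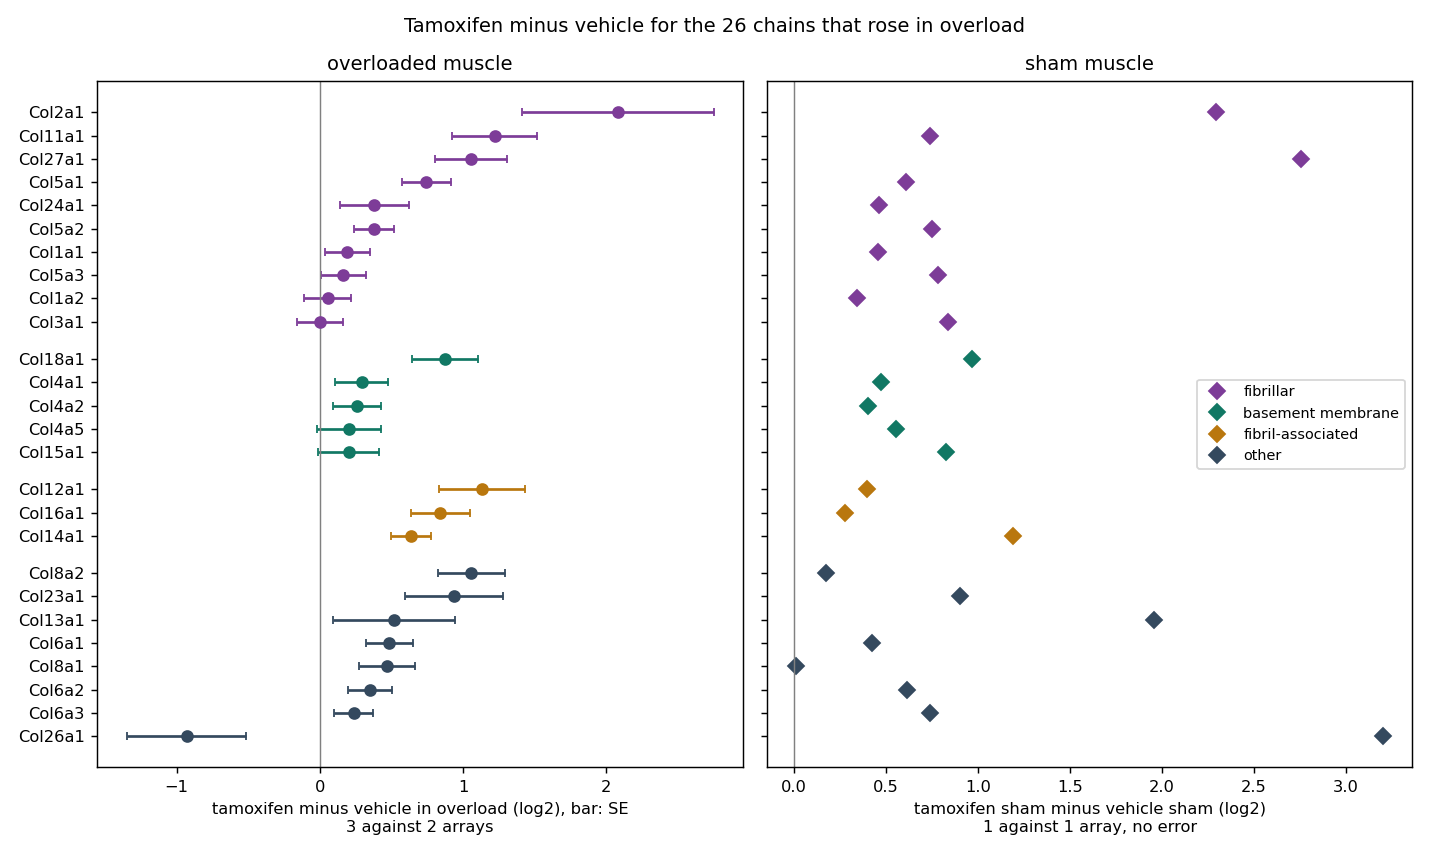
Tamoxifen minus vehicle (log2, x axes) for the 26 collagen chains that rose in overload, by class, in overloaded muscle (circles with SE, 3 against 2 arrays) and in sham muscle (diamonds, 1 against 1 array, no error). Of these chains 25 lie right of 0 in overload, all but Col26a1, and 26 in sham.

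In sham muscle there was 1 array for each treatment, and no test was made, so the values stand as those of 2 arrays. The tamoxifen sham array was above the vehicle sham array for 34 of 42 chains (52.9% of all genes), among them all 11 fibrillar chains, with a median difference of 0.45 against 0.03 over all genes. At least 2-fold higher were 5 chains (10.5% of all genes) and at least 2-fold lower none (7.15%). The 5 were Col26a1, Col27a1, Col2a1, Col13a1 and Col14a1, and the vehicle sham array lay below background for the first 4 of them, as did the tamoxifen sham array for Col2a1. Col14a1 was at 793 on the tamoxifen sham array and 347 on the vehicle sham array, Col3a1 at 11402 and 6385 and Col8a1 at 429 and 426.

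The interaction, overload minus sham with tamoxifen minus the same with vehicle, was not called for any chain or any gene (0.0%) in limma. At an unadjusted p under 0.05 there were 3 of 42 chains, against 5.61% of all genes, and the median was -0.22. These were Col26a1 (adjusted p = 0.697), Col27a1 (adjusted p = 0.745) and Col3a1 (-0.84 ± 0.29, adjusted p = 0.784), and the interaction was negative in all 3. The vehicle sham array lay below background for Col26a1 and Col27a1, so the size of their interactions was not measured. Col14a1 (-0.56 ± 0.26) and Col5a3 (-0.62 ± 0.29) followed, each with an adjusted p of 0.903. The tamoxifen minus vehicle difference of the 2 sham arrays enters the interaction with a minus sign, so a higher tamoxifen sham array lowers it by construction. That array was the higher in all 5, as in all 26 chains that rose in overload. For Col3a1 the sham difference was 0.84 and the overload difference 0.00.

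The genes that build, crosslink and bind collagen moved with the chains. Of 38 measured genes 24 rose and 1 fell, with a median of 0.84, against 14.7% of all genes called higher, 8.16% called lower and a median of 0.07. Among 19 genes of procollagen modification and folding 12 rose. P4ha3, a prolyl hydroxylase subunit, was at least 4.54-fold higher (adjusted p = 0.000755), with both sham arrays below background. Plod2, the lysyl hydroxylase of telopeptides (2.73 ± 0.28, adjusted p = 0.000667), Crtap (2.02 ± 0.19, adjusted p = 0.000464) and P3h3 (1.93 ± 0.24, adjusted p = 0.0014) were measured on both sides. Mia3, which loads procollagen into transport carriers and was chosen after its values were seen, was the 1 that fell (-0.47 ± 0.13, adjusted p = 0.0393).

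Among 10 genes of propeptide removal and crosslinking 7 rose. Tll1, a proteinase that cuts the C-propeptide, was at least 2.59-fold higher (adjusted p = 0.00392, both sham arrays below background), and Lox, the main lysyl oxidase, differed by 2.88 ± 0.19 (adjusted p = 0.000119). Lox had signals of 8086, 10958 and 9823 with tamoxifen overload and 7415 and 5013 with vehicle overload, against 1342 with tamoxifen sham and 678 with vehicle sham. Loxl1 (2.34 ± 0.14, adjusted p = 7.11e-05) and Pcolce, which speeds propeptide removal (2.07 ± 0.17, adjusted p = 0.000283), rose too. Of 9 receptors 5 rose, among them Mrc2, which takes up collagen for breakdown (2.08 ± 0.18, adjusted p = 0.000315), the leukocyte receptor Lair1 (1.27 ± 0.33, adjusted p = 0.0297) and the integrin chains Itgb1 (0.84 ± 0.15, adjusted p = 0.00673) and Itga1 (0.82 ± 0.25, adjusted p = 0.0489).

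Markers of several cell types moved beside the chains, and in whole muscle more cells of a type and more RNA per cell cannot be told apart. The counts below stand against 14.7% of all genes called higher and 8.16% lower. Of 12 fibroblast markers 9 rose and 1 fell (summed signal 54664 to 65762 in overload and 49463 to 53646 in sham), with a median difference of 1.09. The 1 that fell, Gsn, made up much of that sum, with 18446 to 24083 in overload and 38148 and 36564 in sham. Of 9 tendon cell markers 5 rose (30398 to 63150 in overload and 20538 to 24312 in sham), and all 10 macrophage markers rose (21594 to 35496 in overload and 4950 to 8966 in sham). Of 10 endothelial markers 1 rose and 2 fell (7778 to 12362 in overload and 8964 to 10554 in sham), and of 10 smooth muscle and pericyte markers 2 rose (53591 to 58307 in overload and 55429 to 56537 in sham). The 10 markers of muscle fibres were above background on all arrays and none was called (262493 to 335254 in overload and 376114 to 397742 in sham). Of 6 Schwann cell markers 1 fell. Of 8 satellite cell markers 3 rose, among them Chodl, which is also counted among the 5 tendon cell markers. The part of these cell types in the collagen values was not tested. Median signals of the arrays were 88.2 to 127.7, 68.8% of genes lay above background, and precision is limited by having 7 arrays.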

How the data were processed

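Per the labels, 1 µg of total RNA was labelled with a whole-transcript kit for Affymetrix Mouse 430 2.0 arrays. The deposited table holds linear intensities. The submitters' processing notes list Partek with no role, and no source used here tells how probes were summarised into sets. Each array's mean without the lowest and highest 2% is 500, so arrays were scaled as a whole by the authors, and a change of total RNA would not show.

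Values were taken as log2(value + 1). Of 45101 probe sets, 34945 had a single symbol (34741 matched RefSeq by Entrez identifier, 0 symbols changed), 932 several, 9160 none and 64 were controls. The RefSeq chains Col6a6 and Col28a1 were not analysed here. The linear model had 4 group terms and a sex term, with limma 3.58.1 under R 4.3.3 (and data.table, version 1.17.8), and eBayes moderated variances along an intensity trend (2 residual and 5.95 prior degrees of freedom), for 18193 genes. Tests were two-sided with Benjamini-Hochberg adjustment over all genes. SE is limma's moderated standard error. A sham group has 1 array, which was assumed to vary like the overload arrays. Folds are given as bounds where all arrays of a side lay below background, and a p-value beside a bound is that of the fitted difference. Overload arrays correlated with r of 0.952 to 0.963 over genes, and 0 pairs were identical. Each class's chains above background with the largest differences, Col1a1, Col1a2, Col3a1, Col4a1, Col4a2 and Col6a1, and the 5 smallest p-values per treatment comparison are named, with up to 4 genes of each pathway list. Members and lists were chosen with earlier results of these data known.

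The fits were tested on simulated data, where the share of false calls among the called genes was above the adjusted threshold for every comparison. Alternatives were quantile normalization, median centring, a pseudocount of 16, dropping genes below background, averaging a gene's probe sets, testing every probe set, leaving out the sex term, the female arrays, the interaction (additive model), the intensity trend, all moderation (ordinary linear model) or the sham arrays, and leaving out each array in turn. Tables and plots used Python 3.11.15 with matplotlib 3.10.9.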

Additional observations from a re-analysis of the deposited data

Results flagged for a closer look

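Col19a1, a fibril-associated chain, was set apart because its arrays moved in opposite directions with the 2 treatments. With tamoxifen all 3 overload arrays were below the tamoxifen sham array (mean difference -0.142), and with vehicle both overload arrays were above the vehicle sham array (0.621). The interaction in limma did not pass (-0.82 ± 0.61, adjusted p = 0.983).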

How the results depend on the processing

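Overload raised 26 chains. Other settings that kept the intensity trend gave 23 to 26 calls, and leaving out an array gave 19 to 26, the lowest without the vehicle sham array in an additive model that was added after seeing the data. Without the intensity trend, and likewise with an ordinary linear model, 0 chains were called for overload against sham averaged, with vehicle or with tamoxifen, and 0 of the collagen-making and collagen-binding genes. In both settings 0 of all genes were called too. With vehicle the count of 21 ranged from 17 to 24 when an array was left out. Under other settings with the trend it ranged from 15 (probe sets averaged) to 24 (genes below background dropped). With tamoxifen the count of 19 ranged from 17 to 20 and from 16 (median centring) to 20. The additive model has 1 overload term shared by both treatments, so its 25 calls are for overload averaged and give no count within a treatment. For tamoxifen against vehicle in overload the range was 0 to 8, and 8 chains came without tamoxifen overload replicate 1. The interaction gave 0 each time. The 25 collagen-making and collagen-binding genes ranged from 15 to 25 when an array was left out, with 15 in the additive model without the tamoxifen sham array, and from 18 (male arrays alone, or probe sets averaged) to 26 (no sex term) under other settings with the trend. The uncalled Col19a1 difference in overload ran from -0.13 to 0.53 when an overload array was left out, turning its sign without vehicle overload replicate 2, and was -0.031 in the additive model without the vehicle sham array. With a gene's probe sets averaged the sign turned for Col5a3 with tamoxifen (-0.031) and for the Col14a1 interaction (0.59). The second Col5a3 set was below background in every group (8.83 to 39.5), and the dimmest Col14a1 set read 4.61 with tamoxifen sham and 17.5 with vehicle sham. Their part in these values was not tested. Over all genes 2678 were called higher and 1485 lower; median centring gave 1740 and 2710 and quantile normalization 2034 and 1306, with the median of all genes shifted by -0.29 and -0.19, while 23 and 22 chains stayed higher and 1 was lower under each. No paired analysis was possible because the groups share fewer than 2 replicate numbers in the titles.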
